A study of Mus musculus with 9 samples.

Results

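The Na,K-ATPase beta subunit genes Atp1b1, Atp1b2 and Atp1b3 were followed in the hippocampus of mice in which the dose of the ATP synthase inhibitor IF1 was lowered or raised in neurons. The members are all non-control probes that the array annotation names after these 3 genes, which gave 3 of the 31093 gene names and 4 of the 39429 probes on the array. Each of 9 mice on a C57BL/6J background, aged 9 months, gave 1 one-colour Agilent array of total hippocampal RNA. There were 3 mice for each of 3 genotypes. IF1-KO mice carry a floxed Atp5if1 allele, listed on the array as Atpif1, whose exon 3 is deleted by Cre under the Camk2a promoter. IF1-TG mice carry human IF1 behind a tetracycline-regulated element, driven by a transactivator that is also under the Camk2a promoter. The third genotype is the control (CRL), whose alleles the sample labels do not spell out. The Camk2a promoter is active mostly in excitatory forebrain neurons, so the glia, vessels and many interneurons in these samples were not targeted.

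The Na,K-ATPase, or sodium pump, spends ATP to carry sodium out of the cell and potassium in, and restores the ion gradients that neuronal activity runs down. A catalytic alpha subunit binds the ions and ATP, while a glycosylated beta subunit is needed for the pump to fold, reach the plasma membrane and bind potassium. In brain, Atp1b1 is the main beta subunit of neurons, Atp1b2 is the astrocyte form, first described as an adhesion molecule on glia, and Atp1b3 is more widely spread and less studied.

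The sequences that stand for these genes in every value below are short stretches of transcript, and the middle 30 of the 60 bases of each probe are shown so that the target of each measurement can be found. Coordinates are those of the array annotation on mm9, and all 4 probes lie on the minus strand. The annotation places the Atp1b1 probe at chr1:166368263-166368322 (NM_009721, from base 1497 of the transcript), the Atp1b2 probe at chr11:69413253-69413312 (NM_013415, from base 2898), the first Atp1b3 probe at chr9:96233316-96233375 (NM_007502, from base 1549) and the second Atp1b3 probe at chr9:96265126-96265185 (XM_006510783, from base 139). Whether they lie in coding exons or UTRs was not determined here.
Atp1b1: cttaatctctatgctttacactagcttctg
Atp1b2: ctgtaaaaagagggtaaagtacaataaact
Atp1b3, first probe: tttctgttgtagtacatatttaaaaatact
Atp1b3, second probe: ctttgaccactaagtctcaggctgggcttc
The longest run of bases that any pair of these probes shares is 7, and the share of G and C is 38.3% for the Atp1b1 probe, 35.0% for the Atp1b2 and first Atp1b3 probes and 55.0% for the second Atp1b3 probe. Each probe was printed as 1 spot, so each gene rests on 1 spot per array. Levels are therefore not set against each other between genes.

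Signals are log2 intensities with the 75th percentile of their own array set to 0. A probe was tested if every array of 1 genotype or more marked it as well above background, as was the case for 27974 probes and for 3 of the 4 member probes. No spot was saturated. The share of spots well above background was 71.9% to 73.6% on the IF1-KO arrays, 73.0% to 75.6% on the CRL arrays and 67.4% to 70.4% on the IF1-TG arrays. The arrays lay on 3 slides, with IF1-TG replicates 1 and 2 on slide 1 and IF1-KO replicates 2 and 3 with CRL replicate 3 on slide 3, and the other 4 arrays, of all 3 genotypes, on slide 2. Atpif1, the targeted gene, was at 6.44, 5.20 and 5.53 in IF1-KO replicates 1 to 3, at 6.32, 6.34 and 6.19 in CRL and at 6.43, 6.39 and 6.51 in IF1-TG. The array labelled IF1-KO replicate 1 thus showed no reduction of this signal, and values without it are given with each beta subunit gene. Whether the Atpif1 probe reads exon 3, the part deleted in IF1-KO, was not determined. The human transgene may not be read by the mouse probe, which was not tested. Neuronal markers, 10 on every array but CRL replicate 2, averaged 4.22 to 4.31 in IF1-KO, 4.25 to 4.43 in CRL and 4.31 to 4.43 in IF1-TG. The 4.43 of CRL is that of replicate 2, where Gad1 had no value and was left out of the mean. The 7 markers of hippocampal subfields averaged -0.06 in IF1-KO replicate 2 and 0.23 to 0.66 on the other arrays. In bulk tissue, fewer cells of a type and less RNA per cell cannot be told apart.

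No difference between genotypes passed the test for any of the 3 beta subunit genes. Under the rule used for calls, a fold change of at least 1.5 with an unadjusted P below 0.05 in limma, 0 of 3 member probes were called in any comparison. The same rule called 3.79% of all probes between IF1-TG and IF1-KO, 4.47% between IF1-TG and CRL and 1.07% between IF1-KO and CRL, so a count of 0 among 3 does not stand apart from the other probes. No member probe had arrays of one genotype that all lay above those of another with 3 arrays on each side, against 13.6%, 12.1% and 7.90% of all probes in these comparisons.

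Atp1b1, the neuronal beta subunit, was the steadiest of the 3. Its log2 signal was 5.81, 5.63 and 5.78 in IF1-KO replicates 1 to 3, 5.84, 5.66 and 5.65 in CRL, and 5.62, 5.83 and 6.04 in IF1-TG. The genotypes overlapped throughout, and the lowest and the highest of the 9 arrays were both IF1-TG. The log2 difference was 0.09 between IF1-TG and IF1-KO (SE 0.14, limma adjusted P = 0.882), 0.12 between IF1-TG and CRL (SE 0.14, adjusted P = 0.845) and 0.02 between IF1-KO and CRL (SE 0.14, adjusted P = 1.00). Their 95% intervals ran from -0.22 to 0.41, from -0.20 to 0.43 and from -0.29 to 0.33, all inside the log2 value of 0.58 that a 1.5-fold change corresponds to. With slide as a fixed block this no longer held, since the difference was 0.24 between IF1-TG and IF1-KO (95% interval from -0.21 to 0.68) and 0.29 between IF1-TG and CRL (from -0.12 to 0.70). Without IF1-KO replicate 1, the difference was 0.13 between IF1-TG and IF1-KO and -0.012 between IF1-KO and CRL. The highest array was 1.34-fold above the lowest. Its residual SD around the genotype means was 0.15, against a median of 0.24 over all tested probes, and 22.4% of probes had a smaller one.

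Atp1b2, the glial beta subunit, had a wider range from lowest to highest array within each genotype than lay between any 2 genotype means. Its log2 signal was 2.98, 3.57 and 3.46 in IF1-KO replicates 1 to 3, 2.98, 2.84 and 3.60 in CRL, and 3.07, 3.18 and 2.60 in IF1-TG. The highest value was a CRL array and the lowest an IF1-TG array, while IF1-KO and CRL both held low and high arrays. The means fell in the order IF1-KO (3.34 ± 0.31, SD, n = 3), CRL (3.14 ± 0.41, SD, n = 3) and IF1-TG (2.95 ± 0.31, SD, n = 3), but no neighbours in this order differed beyond their spread. The log2 difference was -0.39 between IF1-TG and IF1-KO (SE 0.25, limma adjusted P = 0.742), -0.19 between IF1-TG and CRL (SE 0.25, adjusted P = 0.867) and 0.20 between IF1-KO and CRL (SE 0.25, adjusted P = 1.00). The intervals, from -0.97 to 0.19, from -0.77 to 0.39 and from -0.38 to 0.78, reach past a 1.5-fold change in 1 direction each. Without IF1-KO replicate 1, the array that showed no loss of Atpif1, the difference between IF1-TG and IF1-KO was -0.57 (SE 0.27, limma adjusted P = 0.658) and that between IF1-KO and CRL 0.38 (SE 0.27, adjusted P = 0.982). The 2 IF1-KO arrays left in that fit both lay on slide 3, with 1 CRL array and no IF1-TG array, and the fit has no term for slide, so both values also hold the slide difference described below. With slide as a fixed block and all 9 arrays, Atp1b2 was -0.33 in IF1-TG relative to IF1-KO (SE 0.17, limma adjusted P = 0.819) and -0.33 relative to CRL (SE 0.16, adjusted P = 0.500). In that fit IF1-TG is compared through replicate 3 alone, since replicates 1 and 2 share slide 1 with no other genotype.

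Atp1b3 was measured by its first probe on 8 arrays, since the spot of IF1-KO replicate 1 was marked as an outlier and left out. The log2 signal was 1.06 and 1.16 in IF1-KO replicates 2 and 3, 0.98, 0.58 and 1.36 in CRL, and 0.80, 1.19 and 0.07 in IF1-TG. The spot left out stood at 0.51, so the differences given here already stand without that array's Atp1b3 value. Again the highest array was CRL replicate 3 and the lowest IF1-TG replicate 3, as for Atp1b2. The log2 difference was -0.42 between IF1-TG and IF1-KO (SE 0.34, limma adjusted P = 0.780), -0.29 between IF1-TG and CRL (SE 0.31, adjusted P = 0.828) and 0.14 between IF1-KO and CRL (SE 0.34, adjusted P = 1.00). Their intervals, from -1.22 to 0.37, from -0.999 to 0.43 and from -0.66 to 0.94, are wide enough to hold a 1.5-fold change. The difference of -0.42 became -0.74 with normexp background correction (limma adjusted P = 0.760) and -0.22 with the outlier spot kept (adjusted P = 0.880). With slide as a fixed block, the difference between IF1-TG and CRL was -0.71 (SE 0.26, limma adjusted P = 0.421), with a 95% interval from -1.36 to -0.054, which passed the rule for calls, as did 7.92% of all probes in that fit. That value is the gap on slide 2 between 1 IF1-TG array, replicate 3, and 2 CRL arrays. In the fit without slide, leaving out IF1-TG replicate 3 took the difference between IF1-TG and CRL from -0.29 to 0.02. The second Atp1b3 probe was well above background on 1 of 9 arrays and was not tested.

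**Figure D1:**
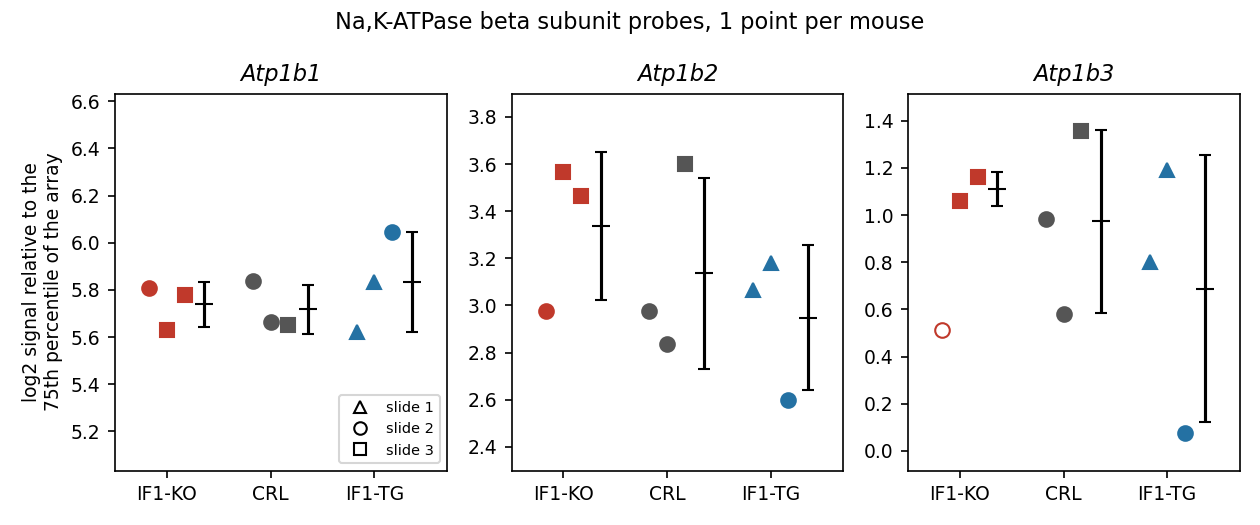
Log2 signal of the tested probe of Atp1b1, Atp1b2 and Atp1b3, with the array's 75th percentile at 0 (y axis), for each mouse of the 3 genotypes (x axis), with the slide as the symbol and the mean and SD (n = 3, for Atp1b3 in IF1-KO n = 2) as bars. The open point is the Atp1b3 spot left out as an outlier, and for Atp1b2 the 3 squares of slide 3, at 3.46 to 3.60, lie above all other arrays.

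**Figure D2:**
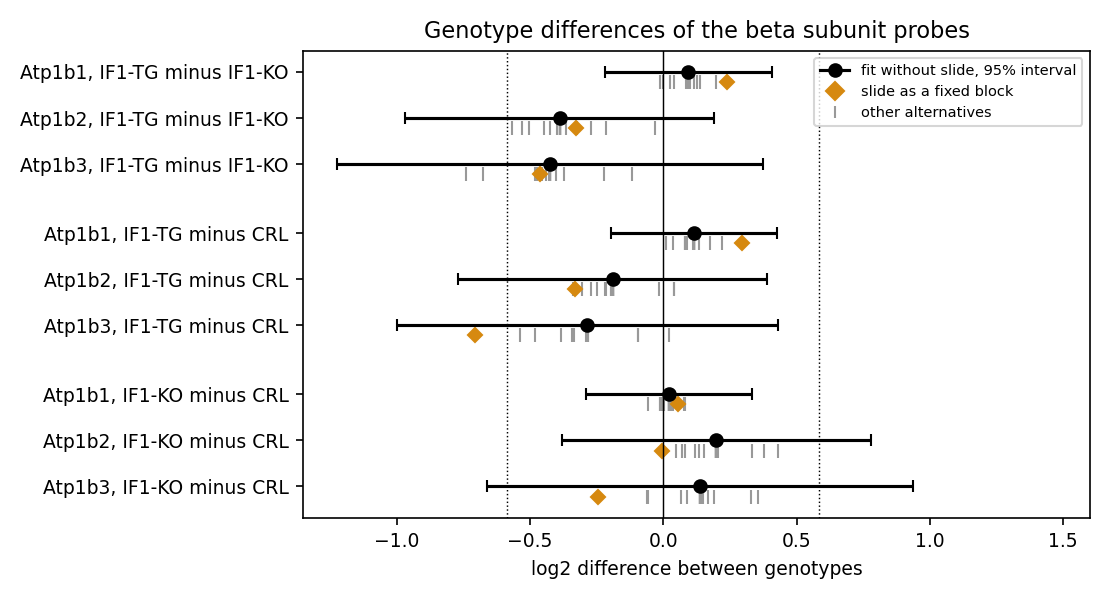
Log2 difference between genotypes (x axis) of each beta subunit gene in each comparison (y axis), with the 95% limma interval, the value with slide as a fixed block (diamond) and the values under the other alternatives (ticks). Dotted lines mark a 1.5-fold change, and every 95% interval drawn, from the fit without slide, includes 0.

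The arrays of slide 3 carried more Atp1b2 signal than all others, whatever their genotype. On slide 3 Atp1b2 stood at 3.57 and 3.46 in IF1-KO and 3.60 in CRL, while the highest of the other 6 arrays was 3.18. Of all probes with a value on every array, 9.59% separated slide 3 from the rest in this way and 2.88% did so upward. With genotype in the same limma fit, Atp1b2 was 0.61 higher on slide 3 than on slide 2 (SE 0.11, 1.53-fold, adjusted P = 0.272). That passed the rule for calls, as did 4.35% of the 27949 probes tested for the slide difference, and its P ranked 144 among them. Slides are not a condition of the study, and this difference was looked for after the values had been seen.

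Atp1b3 was shifted by a similar amount, 0.57 (SE 0.22, 1.49-fold, limma adjusted P = 0.461), just under the fold needed for a call. Atp1b1 was -0.10 from slide 2 (SE 0.12, limma adjusted P = 0.820). Slide 3 held 2 IF1-KO arrays, 1 CRL array and no IF1-TG array, and slide and genotype were thus partly confounded. With slide as a fixed block IF1-TG remained the lowest genotype for Atp1b2, by the -0.33 given above, while IF1-KO and CRL differed by -0.0058. Within slide 3, Atp1b2 was -0.08 and Atp1b3 -0.25 in IF1-KO relative to CRL. Within slide 2 the only IF1-KO array was replicate 1, which showed no loss of Atpif1 signal. Its values there are thus not a contrast with an array in which that signal was reduced. Atp1b2 was 0.07 higher on that array than in CRL, and IF1-TG replicate 3 was 0.38 below it and 0.31 below CRL for Atp1b2 and 0.71 below CRL for Atp1b3, but 0.24 above it and 0.29 above CRL for Atp1b1. These within-slide values rest on 1 or 2 arrays per genotype. For Atp1b3 the value on slide 3 and that on slide 2 are also the estimates of the fit with slide as a fixed block, which gave the first an SE of 0.23 (limma adjusted P = 1.00) and the second the call described above.

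None of the astrocyte markers was called between slides 3 and 2, while of the subfield markers Neurod6, a transcription factor of pyramidal neurons, was called at 0.99 (SE 0.37, limma adjusted P = 0.447). The mean of all 10 astrocyte markers lay between 2.24 and 2.48 in IF1-KO, between 2.31 and 2.42 in CRL and between 2.27 and 2.53 in IF1-TG. The median difference of the astrocyte markers between slides 3 and 2 was -0.14. Choroid plexus markers, 9 of 10 of which were measured, were the most variable, from -3.50 to 0.76 in IF1-KO, from -2.82 to 1.04 in CRL and from -2.76 to 2.16 in IF1-TG. On the 3 arrays of slide 3 this list spanned -3.50 to 0.76, and its part in the beta subunit values was not tested. Means for oligodendrocyte markers (10 of 10 measured) ran from 1.75 to 2.36, for microglia (10 of 10) from 1.61 to 1.92, for endothelium (6 of 6) from -1.03 to -0.64 over all arrays. Striatal markers (8 genes) averaged -0.50 in CRL replicate 3, the array highest in Atp1b2 and Atp1b3, and -1.63 to -1.29 on the other 8 arrays. Their part in the values of that array was not tested, and without it Atp1b2 was 0.04 higher in IF1-TG than in CRL.

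**Figure D3:**
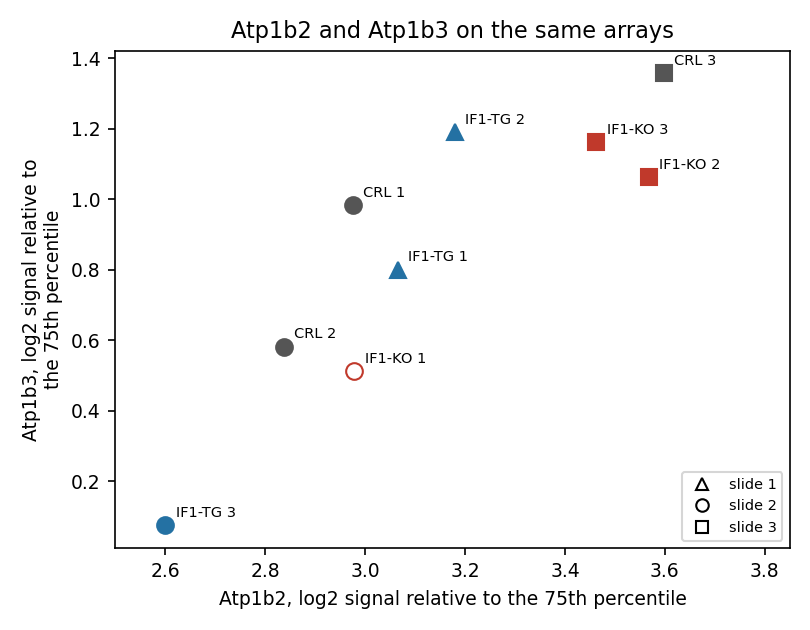
Atp1b2 (x axis) against Atp1b3 (y axis), both as log2 signal relative to the 75th percentile, for the 9 arrays, with colour for genotype and symbol for slide. IF1-TG replicate 3 is lowest and CRL replicate 3 highest for both genes, and the open point is the Atp1b3 spot left out as an outlier.

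The balance between the beta subunits was compared within each array, where the scaling of the array cancels. The log2 signal of Atp1b1 minus that of Atp1b2 was 2.83, 2.06 and 2.32 in IF1-KO replicates 1 to 3, 2.86, 2.83 and 2.05 in CRL, and 2.56, 2.65 and 3.44 in IF1-TG. These values serve only to compare arrays, since the 2 probes need not have the same efficiency. The 3 lowest values were those of slide 3 and the highest that of IF1-TG replicate 3. The difference was 0.48 between IF1-TG and IF1-KO (exact two-sided permutation test, P = 0.3), 0.30 between IF1-TG and CRL (exact P = 0.6) and -0.18 between IF1-KO and CRL (exact P = 0.8). Without IF1-KO replicate 1 the first was 0.69 (exact P = 0.2) and the last -0.39 (exact P = 0.4). For Atp1b1 minus Atp1b3 the corresponding differences were 0.55 (exact P = 0.5), 0.40 (exact P = 0.6) and -0.15 (exact P = 0.7).

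Atp1b2 minus Atp1b3 varied least. It was 2.51 and 2.30 in IF1-KO replicates 2 and 3, 1.99, 2.26 and 2.24 in CRL and 2.27, 1.99 and 2.53 in IF1-TG. The 2 IF1-KO values lay above the 3 CRL values, with a difference of 0.24 (exact P = 0.1), while IF1-TG spanned both, at -0.14 from IF1-KO (exact P = 0.5) and 0.10 from CRL (exact P = 0.5). The smallest P that these sample numbers allow is 0.1, and over the 9 within-array comparisons the smallest adjusted P was 0.771.

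Genes that work around the pump were read from lists of regulators, partners, ion clearance and sodium entry, and 35 of 38 of these genes had a tested probe. By limma on the brightest probe of each gene, 0 of the 35 were called in any of the 3 comparisons, against 3.7% of all genes between IF1-TG and IF1-KO, 4.31% between IF1-TG and CRL and 1.02% between IF1-KO and CRL. An unadjusted P below 0.05, without the fold, was reached by 1, 2 and 1 of them in these comparisons. The share of all genes that reached it is not given here. Of these genes, 18 other kept probes were dimmer than the one that stands for the gene. They held 1 call between IF1-TG and IF1-KO (Aqp4), against 3.79% of all probes. Between IF1-TG and CRL they held 2 (Nkain3 and a gene of sodium entry, 0.79), against 4.47%. Between IF1-KO and CRL they held 1 (Nkain3), against 1.07%. Counts this small are not read as a result about these genes. The median log2 differences of the 35 genes were 0.07, 0.08 and 0.01. Between slides 3 and 2, 0 of the 35 were called, against 4.35% of all genes, and their median difference was 0.00 against -0.05 over all genes.

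The FXYD proteins are small membrane proteins that tune the pump's ion affinities. None of the 6 measured of 7 was called by its brightest probe in any comparison. Fxyd1 (phospholemman) was at 4.30 in IF1-KO, 4.43 in CRL and 4.62 in IF1-TG on average, and Fxyd7, a brain form, at 0.00, -0.20 and 0.27. The brain proteins of the Nkain family, which bind the beta 1 subunit, were all 4 measured and none was called by its brightest probe. Nkain1 was at 0.41 in IF1-TG against 0.17 in IF1-KO (SE of the difference 0.12, limma adjusted P = 0.712). The probes of Nkain3 disagreed. Its brighter probe differed by 0.05 between IF1-TG and CRL and by 0.03 between IF1-KO and CRL. In the same comparisons a dimmer one was called at 0.73 (limma adjusted P = 0.561) and 0.72 (adjusted P = 1.00). The dimmer probe was well above background on 3 IF1-KO, 2 CRL and 1 IF1-TG arrays, so it entered the test through IF1-KO alone. Its second call, with IF1-KO as the higher side, is thus not independent of that filter. The first call was lost without IF1-TG replicate 1 (0.49) or 3 (0.74) or without CRL replicate 2 (0.55) or 3 (0.65), and the second without any 1 of the IF1-KO arrays (0.64 to 0.79), CRL replicate 2 (0.54) or CRL replicate 3 (0.65). Of the remaining beta-like and H,K-ATPase subunits, Atp1b4 and Atp4b had no tested probe, and Atp4a and Atp12a, the catalytic subunits of the gastric and colonic proton pumps, were not called. Atp4a was dim, with means of -5.26 in IF1-KO, -5.61 in CRL and -5.48 in IF1-TG, though well above background on all 9 arrays, and it was called between IF1-TG and CRL with slide as a fixed block (0.75, limma adjusted P = 0.400). Atp12a, with means of -6.21, -5.67 and -6.72, was well above background on 7 of 9 arrays.

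Atp1b2 also works as an adhesion protein of glia, and 3 adhesion and membrane proteins linked to it or to its astrocyte complexes were measured with none called by its brightest probe. Hepacam, the glial adhesion molecule GlialCAM, was 0.29 higher in IF1-TG than in IF1-KO (SE 0.13, limma adjusted P = 0.699), Mlc1, an astrocyte membrane protein that Hepacam binds, differed by 0.00 and Bsg, basigin, by -0.21 in the same comparison.

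Astrocytes clear the potassium and glutamate that active neurons release, work that leans on the pump, and 9 of 9 genes of that list were measured with none called by its brightest probe. By that probe they ran from -0.83 for Gjb6, the astrocyte gap junction protein connexin 30, to 0.46 between IF1-TG and IF1-KO. The signal of Gjb6 was 1.87, 1.80 and 1.72 in IF1-KO, 1.04, 0.92 and 1.84 in CRL and 0.11, 1.36 and 1.45 in IF1-TG (IF1-TG against IF1-KO, SE 0.37, limma adjusted P = 0.705). The size of the difference rested on IF1-TG replicate 1, without which it was -0.39. It passed the rule for calls with normexp (-0.91) and without IF1-TG replicate 2 (-1.02), IF1-TG replicate 3 (-1.06) or CRL replicate 3 (-0.83). Aqp4, the water channel of astrocyte endfeet, has a second probe that was well above background on all arrays and was called, 0.79 higher in IF1-TG than in IF1-KO (SE 0.19, 1.73-fold, limma adjusted P = 0.661), with means of 0.33 in IF1-KO, 0.59 in CRL and 1.12 in IF1-TG. That call was kept with each array left out, at 0.59 (without IF1-KO replicate 2) to 0.91 (without IF1-KO replicate 1). The brightest probe of Aqp4 was at 0.40 in the same comparison (SE 0.20, adjusted P = 0.712), short of a call. Without IF1-KO replicate 1 it was called, at 0.60 (SE 0.18, limma adjusted P = 0.653). The IF1-KO arrays left in that fit all lay on slide 3, where this probe was -0.42 from slide 2 with genotype in the fit (SE 0.13, limma adjusted P = 0.398). Channels and carriers by which sodium enters neurons, 11 of 11 measured, ran from -0.24 to 0.55 between IF1-TG and IF1-KO. They ran from -0.35 to 0.55 between IF1-TG and CRL and from -0.42 to 0.17 between IF1-KO and CRL. None was called by its brightest probe.

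**Figure D4:**
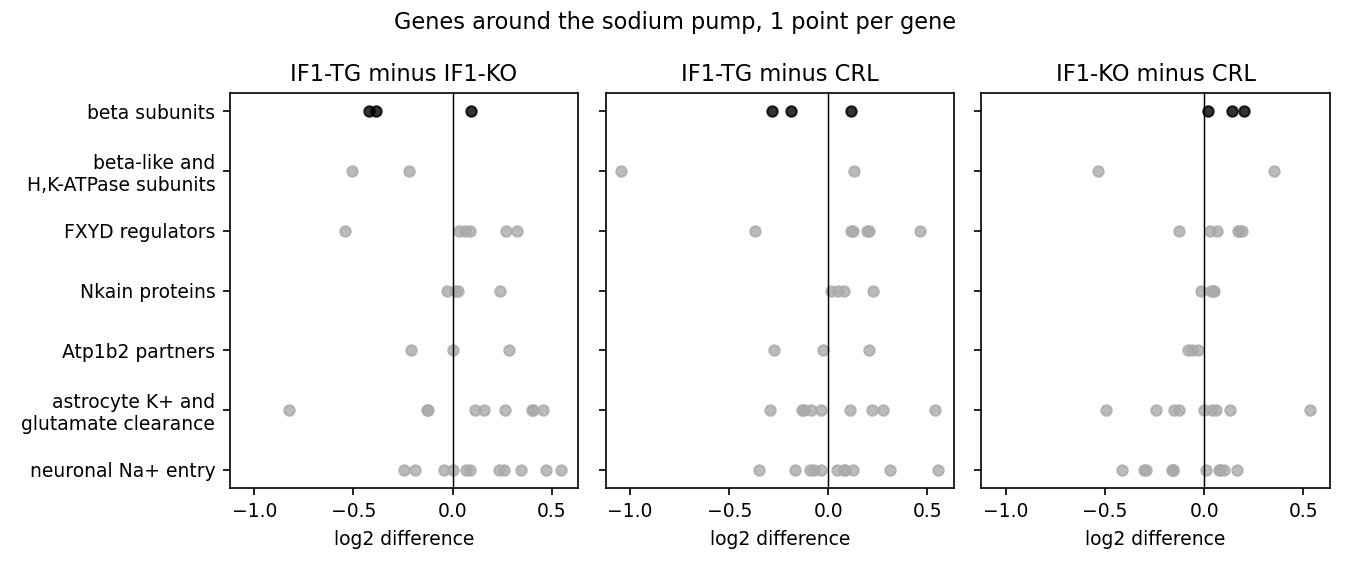
Log2 difference between genotypes (x axis, 1 panel per comparison) of the tested beta subunit probes and of each measured gene of 6 lists around the sodium pump (y axis). Each gene is shown by its brightest probe, all points missed the rule for calls, and the beta subunits, in black, lie among the other genes, from -0.42 to 0.20.

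Over the arrays, the genes whose pattern was most like that of each beta subunit were not members of these lists. Among 19525 genes well above background on all arrays, those most like Atp1b1 were Gm9456 (Pearson r 0.97), A430005L14Rik (r 0.96) and Ankzf1 (r 0.95), and those most like Atp1b2 were Ahctf1 (r 0.98), Tmem17 (r 0.97) and Txnl1 (r 0.97), over 9 arrays. For Atp1b3, over 8 arrays, they were 3222401L13Rik (r 0.98), 2610524H06Rik (r 0.98) and Cd14 (r 0.96). These are the top of a ranking over few arrays that share slides and scaling, and are given as a description. The 3 genes ranked beside Atp1b2 were picked for following it over these same arrays, slide 3 included. A higher level on slide 3 is thus part of that choice. Relative to slide 2, Txnl1 was 0.56 higher there, Tmem17 0.26 and Ahctf1 0.25.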

How the data were processed

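Per the file headers, the authors deposited Agilent Feature Extraction 10.7.3.1 output, in which the processed intensity of each spot has the background subtracted within the array and is not normalized between arrays. The deposited mean and local background intensities served for an alternative. Genotype, replicate and age come from the labels, and slides from the array labels in the files.

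Control spots and spots marked as outliers were left out, and each array's log2 intensities were centred on their 75th percentile. All 9 arrays entered 1 fit with genotype in limma 3.58.1 (R 4.3.3), after a check on simulated data. Calls use the thresholds in the study's methods, a fold change of 1.5 and an unadjusted P of 0.05. Adjusted values are Benjamini-Hochberg over all probes tested. A gene is given by its brightest kept probe. The members and lists were chosen with earlier results of these data known. Named genes are the members, Atpif1, the 3 genes most alike per member and some of the list genes, not every extreme or call. The catalytic alpha subunits and some other results are not reported here, and the list counts leave them out.

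Alternatives were normexp (offset 50) with quantile normalization, quantile normalization alone, median centring, other filters on dim probes, blocks for slide (fixed or random) or replicate number, fits of 2 genotypes, trended robust eBayes, means over the probes of a gene, and each array left out. Keeping outlier spots, leaving out slide 3 and the slide comparison were added after seeing the data. Precision is limited by the number of arrays, each of a separate mouse.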

Additional observations from a re-analysis of the deposited data

Results flagged for a closer look

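The second Atp1b3 probe, outside the tested set, gave a signal in 1 sample. It was well above background in IF1-KO replicate 2 only, with a processed intensity of 29.2, while the CRL arrays reached at most 19.7 and the IF1-TG arrays lay between 12.3 and 13.7. It shares at most 6 bases in a row with the first Atp1b3 probe, whose signal on that array was within the range of the other arrays.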

How the results depend on the processing

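Of 193 recomputed genotype differences of the 3 genes, 179 kept their direction and stayed uncalled, 13 turned direction and 1 passed the rule for calls, and the cause was not tested. Between IF1-TG and IF1-KO, Atp1b1 was -0.0019 with quantile normalization. Without slide 3, IF1-KO is left with replicate 1 alone, the array with no loss of Atpif1, and Atp1b2 was -0.03 from it in IF1-TG. Between IF1-TG and CRL, Atp1b2 was 0.042 without slide 3, and Atp1b3 was -0.71 with slide as a fixed block, now called. Between IF1-KO and CRL, Atp1b1 was -0.056 with normexp, Atp1b2 -0.0058 and Atp1b3 -0.25 with slide as a fixed block, and Atp1b3 -0.062 with the outlier spot kept, where Atp1b1 minus Atp1b3 was 0.084.

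With each array left out, the differences between IF1-TG and IF1-KO ran from -0.012 to 0.20 for Atp1b1, -0.57 to -0.21 for Atp1b2 and -0.67 to -0.12 for Atp1b3. Between IF1-TG and CRL they ran from 0.0099 to 0.22, -0.34 to 0.042 and -0.54 to 0.022, and between IF1-KO and CRL from -0.012 to 0.082, 0.049 to 0.43 and -0.058 to 0.33. The changes of sign came without IF1-TG replicate 3 (Atp1b1 against IF1-KO, Atp1b3 against CRL), CRL replicate 3 (Atp1b2 between IF1-TG and CRL, Atp1b1 between IF1-KO and CRL), CRL replicate 2 (Atp1b1 and Atp1b3 between IF1-KO and CRL) and IF1-KO replicate 1 (Atp1b1 between IF1-KO and CRL). Within arrays, Atp1b1 minus Atp1b3 ran from -0.012 to 0.65 between IF1-TG and CRL and from -0.38 to 0.019 between IF1-KO and CRL, and Atp1b2 minus Atp1b3 from -0.036 to 0.23 between IF1-TG and CRL.

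The slide 3 excess of Atp1b2 ran from 0.54 to 0.69 with each array left out, under 1.5-fold without CRL replicate 2 (0.57) or CRL replicate 3 (0.54), and that of Atp1b3 from 0.37 to 0.78. Atp1b3 reached a call with normexp (0.93), median centring (0.60), the outlier spot kept (0.59) and without CRL replicate 1 (0.78). The count of called list genes rose from 0 to 2 with normexp and to 1 with slide as a fixed block between IF1-TG and IF1-KO, and from 0 to 1 with normexp and to 3 with slide as a fixed block between IF1-TG and CRL. With normexp 2.03% of all probes were called in each of these comparisons, and with slide as a fixed block 5.13% and 7.92%.

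Same-numbered arrays of different genotypes had deviations that correlated between -0.15 and 0.15, so the numbers do not pair the mice. With the replicate number as a block, no member was called, with Atp1b2 at -0.39 between IF1-TG and IF1-KO (limma adjusted P = 0.778).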
